A study of Mus musculus with 6 samples.

Results

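The comparison described here is between the Dll1-high (mCherry+) and the Dll1-low (mCherry-) fractions of CD24+ CD29-high mammary cells, called subpopulation P4 and mammary stem cells (MaSC) by the labels. It rests on 2 of the 6 samples, 1 array for each fraction, chosen by their labels. The other 4 samples, 2 of macrophages from Dll1 conditional knockout and 2 from wild type mammary glands, are used here only as a check of cell type markers. The cells of both fractions came from virgin female mice of the strain C57/B6:Dll1-mCherry, in which a red fluorescent protein reports the Dll1 gene, and no group without the reporter is part of this comparison. Mammary glands were dissociated mechanically and with enzymes, and cells were sorted by flow cytometry on surface markers. The labels do not give the age of the mice, how many were used, whether they were pooled or where the mCherry gates lay. Each sample's RNA was labelled with Cy5 and hybridised together with a universal mouse reference (RNA pooled from 11 cell lines) labelled with Cy3, and the dyes were not swapped. All values below are log2 ratios of sample to reference, and a difference is the ratio on the Dll1-high array minus that on the Dll1-low array, so a difference of 1 is 2-fold. With 1 array per fraction there is no replicate error and no p-value for any gene.

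Dll1, or Delta-like 1, is a membrane-bound ligand that binds Notch receptors on neighbouring cells. Binding lets ADAM proteases and gamma-secretase release the receptor's intracellular domain, which joins the DNA-binding protein RBPJ and switches on genes of the Hes and Hey families. CD24+ CD29-high cells form the basal layer of the mammary epithelium. That layer holds contractile myoepithelial cells, which carry smooth muscle proteins and squeeze milk from the alveoli, and cells that can regenerate a gland after transplantation.

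The 2 arrays carried 62976 spots each, for 55681 probes. Cy5 was well above background, as judged by the scanner software, on 86.0% of the Dll1-high and 88.1% of the Dll1-low spots, and the median Cy5 signals were 330 and 352.5 over backgrounds of 75 and 76. Both arrays lay on the same slide and were scanned together, and the macrophage arrays were on another slide. A probe entered the comparison if either array had Cy5 well above background, and a gene was read from its brightest probe, which gave 32062 genes and transcripts (22020 with a symbol). The basal label was borne out by 15 basal keratin and adhesion genes, whose median ratio was 3.84 in the Dll1-high and 3.77 in the Dll1-low cells and between -0.05 and 0.43 on the 4 macrophage arrays. Krt14 and Krt5, keratins that define basal cells, differed by -0.03 and -0.05 between the fractions. The 19 macrophage markers had medians of -0.11 and -0.01 in the 2 fractions and 1.85 to 3.99 on the macrophage arrays.

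The reporter's own gene, Dll1, had a higher ratio in the mCherry+ fraction. Its brightest probe lies on chromosome 17 at 15504623 to 15504682 of mm9, and it was printed 10 times on each array. In the Dll1-high cells 10 spots gave a mean ratio of 3.94 (SD 0.168), and in the Dll1-low cells 9 spots gave 3.26 (SD 0.11). The difference of 0.68, or 1.61-fold, compares with a spot SD of 0.20. The Cy5 signal alone, which leaves the reference out, was 0.83 higher, with spot medians of 6843 against 3647.5. The Cy3 reference signal of this probe was 0.36 higher. Dll1 was thus clearly detected in the fraction sorted as mCherry-. The other Dll1 probe, printed once, read 0.38 and 0.24, a difference of 0.14. Of the 500 genes nearest to Dll1 in signal, 2% had a difference of at least the same size. On their brightest probes the genes for the surface markers of the gate were close to level. The differences were -0.10 for Cd24a and -0.15 for Itgb1, which encodes CD29. The other Itgb1 probe was at -0.40 in the ratio and -0.17 in Cy5 alone.

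Across all genes the fractions differed little. The median difference was -0.03 and the SD over genes 0.236, and the 5th and 95th percentiles were -0.44 and 0.31. At least 2-fold higher in Dll1-high cells were 33 genes (0.103%), and 33 (0.103%) were at least 2-fold lower. At least 1.5-fold apart were 224 higher (0.699%) and 507 lower (1.58%), and these shares are the background for the counts given for each group below. The scanner software's own processed signals gave 329 genes at least 2-fold higher and 666 lower, and the ratios in the authors' deposited table put the numbers at 330 and 666, while background correction with an offset of 0 gave 117 and 211. With the genes in 5 groups of equal size by signal, 814 of those past 2-fold by the scanner software were in the dimmest group and 8 in the brightest.

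The reference RNA and the repeated spots each gave a measure of technical spread. The Cy3 channel held the same RNA on both arrays, and after scaling, Cy3 alone put 37 genes past 2-fold upward and 36 downward, against 63 and 81 for Cy5 alone. The SD over genes was 0.191 in Cy3 and 0.275 in Cy5. Most Cy3 differences were in dim genes. In the brightest 2 of the 5 signal groups Cy3 was 2-fold apart for 1 and 0 genes, while Cy5 was so for 26 and 6. Among 368 probes printed 10 times and well above background on both arrays, the difference had a median spot SD of 0.126, and 95% of these SDs were at most 0.252.

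**Figure D1:**
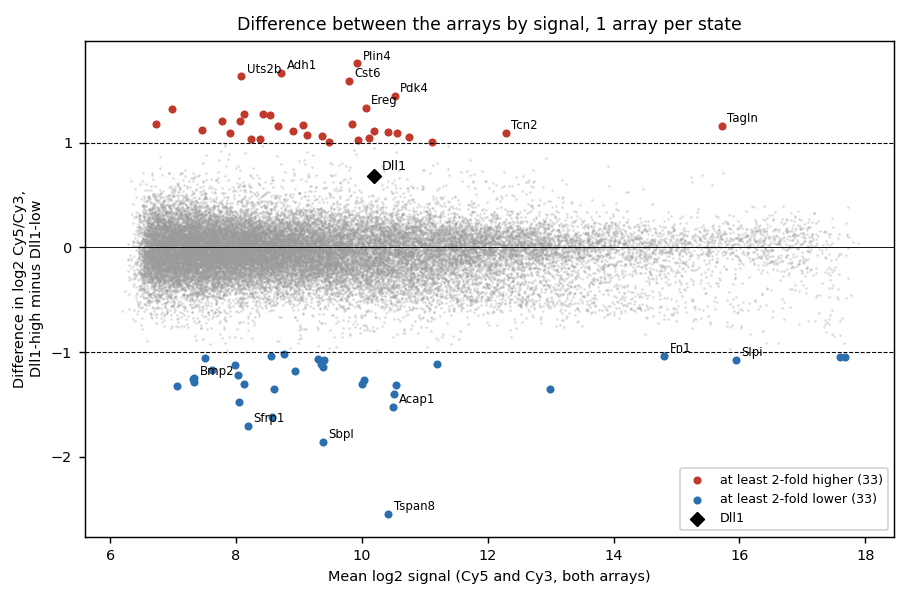
Each point is a gene or transcript (red and blue past 2-fold), with its mean log2 signal over both dyes and both arrays on the horizontal axis and its difference in log2 Cy5/Cy3 between the Dll1-high and Dll1-low arrays on the vertical axis; dashed lines mark 2-fold. The 33 genes past 2-fold in each direction lie outside a band whose 5th and 95th percentiles are -0.44 and 0.31, and Dll1 (diamond) lies at 0.68.

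Of the 66 genes past 2-fold, 24 stayed past 2-fold in the same direction under each of 11 alternative ways of processing that gave them a value, 11 higher and 13 lower. All 24 were read by a single measured probe, so no other probe could check them. For such genes, averaging over probes and requiring signal on both arrays could not change a value. The authors' table nearly repeats the scanner software's ratios, so the alternatives amount to fewer than 11 separate checks. They include secreted factors, lipid and retinoid enzymes, Wnt and BMP pathway genes and secretory genes, described in turn.

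Several genes of lipid and retinoid handling were higher in Dll1-high cells. Plin4, which encodes a protein that coats lipid droplets, had a ratio of 1.15 in the Dll1-high and -0.61 in the Dll1-low cells, with Cy5 signals of 2283 and 780.5 and Cy3 signals of 722 and 721, and was 3.38-fold higher. Pdk4, a kinase that restrains glucose oxidation, had ratios of 4.85 and 3.41 and was 2.73-fold higher. Adh1, an alcohol dehydrogenase that oxidises retinol, had ratios of 2.16 and 0.49 and was 3.18-fold higher. In each of the 3 genes the reference signal was nearly level and the sample signal was not. The cytochrome P450 gene Cyp2f2 was 2.31-fold higher, with ratios of 0.65 and -0.56. The wider lists, as drawn up here, did not share this. Of 30 lipid droplet and fatty acid genes, 14 were higher and 16 lower, and 2 were at least 1.5-fold higher (Plin4 and Pdk4), with a median of -0.03. Of 21 retinoid and detoxification genes, 8 were higher and 13 lower with a median of -0.08, and the retinol carrier Rbp4 was lower at -0.71. Adipocyte markers varied in level: Fabp4, a fatty acid carrier of fat cells, read 6.14 and 6.45. On probes printed 10 times, Lep read 0.34 and 0.13 and Pparg -0.004 and 0.08. Of 12 adipocyte markers 3 were higher and 9 lower, with medians of 0.48 on the Dll1-high and 0.68 on the Dll1-low array. On the macrophage arrays the medians of this list were 0.26 to 1.03. Cidea, another lipid droplet gene, was 0.98 higher, but it was counted with the adipocyte markers and not in the lipid list. Plin1 and Adipoq, which define fat cells, differed by -0.12 and -0.37. The part of fat cell RNA in these values was not tested.

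Several secreted proteins were higher in Dll1-high cells. Uts2b, a small peptide related to urotensin, had Cy5 signals of 1025 and 304 over Cy3 signals of 135 and 139, and was 3.10-fold higher. Cst6, a secreted inhibitor of cysteine proteases, had ratios of -0.51 and -2.10 and was 3.01-fold higher. Ereg, a ligand of the EGF receptor, read -0.64 and -1.98, a 2.52-fold difference. None of the other 12 measured EGF-family ligands and receptors was 1.5-fold apart; Epgn and Hbegf, both ligands, differed by -0.57 and -0.49. Ntf3, a neurotrophin, had Cy5 signals of 1026 and 536 and was 2.30-fold higher, and Tcn2, the carrier of vitamin B12, read 3.07 and 1.98 and was 2.14-fold higher. Ubd, which encodes a ubiquitin-like protein, was 2.41-fold higher. Saa2, an acute-phase protein, was not well above background in the Dll1-low cells, so no fold is given for it; its Cy5 signals were 264 and 125.

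On the lower side the widest difference was that of Tspan8, a tetraspanin of the cell surface. Its Cy5 signals were 930 in the Dll1-high and 4070 in the Dll1-low cells over Cy3 signals of 1048 and 912, a 5.84-fold difference. The alternatives put it between -2.60 and -2.19. Nrcam, a neural cell adhesion molecule, read -0.10 and 1.21 and was 2.48-fold lower, and Sema3b, a secreted semaphorin, was 2.16-fold lower. Acap1, which acts on ARF6 in membrane traffic, was 2.87-fold lower, and Trappc3, a part of the TRAPP vesicle tethering complex, 2.49-fold lower. Lyve1, a hyaluronan receptor of lymphatic endothelium and of some macrophages, read 0.64 and 2.00 and was 2.56-fold lower. Of 7 lymphatic endothelial markers, Lyve1 included, 2 were higher and 5 lower, with a median of -0.11 in the ratio and -0.24 in Cy5 alone, and Lyve1 was the only member 1.5-fold apart. Reln differed by -0.22, Prox1 by -0.11, Pdpn by -0.03 and Flt4 by 0.17. The part of lymphatic cells in the result was not tested. Also past 2-fold under each alternative were Vash2 (-1.18), Brinp1 (-1.26) and 1 transcript without a symbol (-1.15).

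Several secretory and antimicrobial products were lower. Sbpl read 0.99 and 2.84 and was 3.63-fold lower, and Dcpp3 read 0.59 and 2.07 and was 2.78-fold lower. Both are salivary-type secretory proteins, and the Dcpp genes are a family of close copies, so a probe may read more than 1 of them. Slpi, a leukocyte protease inhibitor found in secretions, had Cy5 signals of 139010 and 250730 and was 2.11-fold lower. Of 17 acute-phase and antimicrobial genes, 6 were higher and 11 lower (median -0.04). Beside Slpi, the lysozyme gene Lyz1 (-0.93) and haptoglobin, Hp (-0.84), were at least 1.5-fold lower, and Saa2 and the defensin gene Defb1 (0.66) were at least 1.5-fold higher. Lcn2 and Ltf, secreted iron-binding defence proteins, differed by 0.04 and -0.23.

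**Figure D2:**
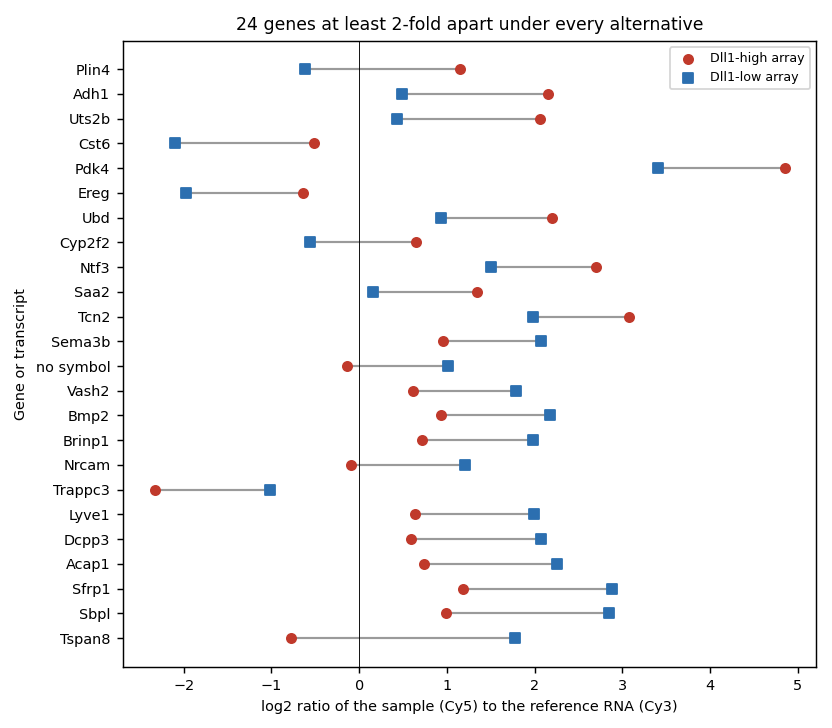
For each of the 24 genes that stayed at least 2-fold apart under every alternative that gave a value, the log2 ratio of sample to reference is shown for the Dll1-high (circle) and the Dll1-low array (square), with no error bar because each fraction has 1 array. The 11 genes higher in Dll1-high cells are at the top, and Tspan8 at the bottom has the longest line, from 1.77 down to -0.77.

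For some genes the reference signal differed between the arrays as well. Of the 66 genes, 7 had Cy3 signals at least 1.5-fold apart between the arrays, and 2 had Cy5 alone of the opposite sign. Elf5, a transcription factor of luminal progenitors and milk-producing cells, was 2.47-fold lower by the ratio. Its Cy5 signals, however, were 608 in the Dll1-high and 439 in the Dll1-low cells, while its Cy3 signals were 288 and 103. Cy5 alone thus put Elf5 0.59 higher, and Cy3 alone differed by 1.79. The transcript 4833419E13Rik showed the mirror image, with a ratio difference of 1.09, Cy5 alone at -0.68 and Cy3 alone at -1.62. Frmpd4, Ttc38, Elk1, 1110059G02Rik and Tagln were the other 5. Requiring in addition that Cy5 alone be at least 1.5-fold apart the same way and Cy3 within 1.5-fold, a rule set after these values were seen, left 30 genes higher (0.0936%) and 29 lower (0.0904%).

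**Figure D3:**
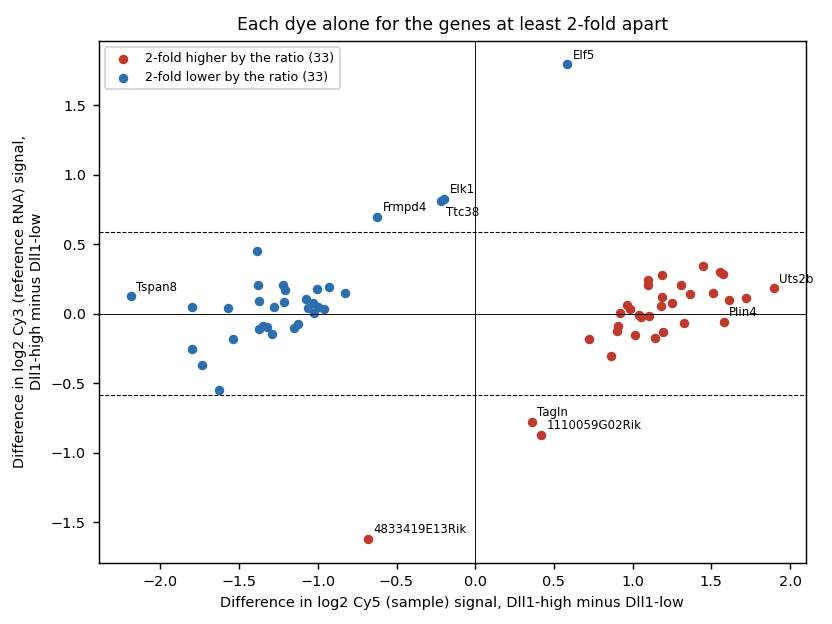
Each point is a gene at least 2-fold apart by the ratio, placed by the difference in its Cy5 sample signal (horizontal) and in its Cy3 reference signal (vertical), both as log2 of the Dll1-high over the Dll1-low array; dashed lines mark 1.5-fold in the reference. Most points lie near 0 in Cy3, while Elf5 lies at 0.59 and 1.79 and 4833419E13Rik at -0.68 and -1.62.

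Genes of the myoepithelial contractile apparatus were mostly higher in Dll1-high cells. Of 18 measured, 15 were higher and 3 lower, against 44.1% higher among all genes. The median difference was 0.34, against -0.03 for all genes, and it kept its sign under the alternatives (0.28 to 0.39). At least 1.5-fold higher were 5 (Tagln, Synm, Actg2, Myl9 and Flna), and none was 1.5-fold lower. Requiring 1.5-fold in Cy5 alone as well and Cy3 within 1.5-fold left 2 of the 5, Synm and Actg2, where this rule left 0.43% of all genes higher and 0.68% lower. Synm, an intermediate filament protein of muscle, read 4.74 and 3.68, with Cy5 signals of 12524 and 5943, and all 5 of its probes were higher, by 0.20 to 1.06. Actg2, the smooth muscle gamma actin, read 4.63 and 3.78, with Cy5 signals of 56724 and 24286, a 1.81-fold difference. Acta2, the smooth muscle alpha actin, read 4.20 and 3.81, a difference of 0.40 with a spot SD of 0.203. These genes carry the filaments on which contraction depends. Tagln, an actin-binding protein, read 5.02 and 3.86, but its Cy5 signal alone was only 0.36 higher and its Cy3 signal differed by -0.78. Myl9, the regulatory light chain of smooth muscle myosin, was 0.67 higher by the ratio and 0.43 by Cy5 alone, and Flna, filamin A, 0.60 and 0.37. Over the list Cy5 alone had a median of 0.37. Des, desmin, was low on both arrays at -1.54 and -1.38. Pericytes carry several of these genes too. Of 10 pericyte markers 4 were higher and 6 lower with a median of -0.08. Pdgfrb, also counted with the fibroblast markers, and Mcam were the only members 1.5-fold apart. Those members differed by -0.59 and -0.71 in the ratio and by -0.48 and -0.20 in Cy5 alone. In whole sorted samples, a different share of contractile cells and a different amount of RNA per cell cannot be told apart.

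The promoters of the contractile genes were searched for the CArG box, the site of serum response factor, in the 250 bases before the gene's start (RefSeq, GRCm38.p6, both strands). It was found for 2 of 15 contractile genes with a promoter in the table, Myl9 and Vcl, and for 1.62% of all 27025 genes. The Myl9 promoter, chr2:156775214-156775463 on the plus strand, is shown because it is the single match among the contractile genes at least 1.5-fold higher, with the box in capitals.

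Myl9: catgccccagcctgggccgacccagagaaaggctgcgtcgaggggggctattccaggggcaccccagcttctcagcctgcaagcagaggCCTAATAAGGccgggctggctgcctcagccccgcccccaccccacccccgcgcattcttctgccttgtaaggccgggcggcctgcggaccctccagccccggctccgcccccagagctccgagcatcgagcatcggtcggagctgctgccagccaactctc

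Other genes of the basal layer differed less. Of 15 basal keratin and adhesion genes 10 were higher and 5 lower, with a median of 0.14 and none 1.5-fold apart. Lamb3 (0.29), a laminin chain of the basement membrane, and the integrin gene Itga6 (0.34) were on the higher side. Dst, which anchors keratins to hemidesmosomes, was at -0.48 on its brightest probe. Its other probes were at 0.41, with ratios of 4.06 and 3.65, and at 0.03, so the direction of Dst was not settled. Krt15 was 0.15 higher in the ratio, 0.97 in Cy5 alone and 0.81 in Cy3 alone. Of 14 basal transcription factors 10 were higher, with a median of 0.09. The T-box genes Tbx2 and Tbx3 lay on opposite sides, at 0.88 and -0.83, although Cy5 alone gave 0.50 for Tbx2, whose Cy3 signals were 86.5 and 138. Trp63, the master regulator of basal identity, differed by -0.31. Of 24 epithelial junction genes 16 were higher and 8 lower (median 0.16). The desmosome genes Dsc2 and Dsg2 were 0.53 and 0.48 higher, and the tight junction gene Cldn7, at 0.00 and 0.79, was the only member 1.5-fold lower. The other, dimmer Cldn7 probe was at 0.11. Of 16 genes used as mammary stem cell markers 6 were higher and 10 lower (median -0.14), and 2 (12.5%) were at least 1.5-fold lower, against 1.58% of all genes. These were Tspan8, at -2.55, and Procr, the protein C receptor, at -0.68, with -0.37 by Cy5 alone. By the requirement on both dyes Tspan8 alone was left, and Itgb3 was 0.48 higher. Lgr5 differed by -0.36 in the ratio and by -0.97 in Cy5 alone, with Cy3 at -0.66.

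Of 15 hormone-sensing luminal genes 3 were higher and 12 lower (80%, against 55.9% of all genes), with a median of -0.18. Tbx3, given above at -0.83, was the only one of them 1.5-fold apart. The oestrogen receptor gene Esr1 read 0.28 and 0.72, a difference of -0.43 with a spot SD of 0.127, and Foxa1, a factor that opens chromatin for that receptor, was at -0.37. Krt8 and Krt18, the keratins that define luminal cells, were at 0.05 and -0.22. Of 18 luminal progenitor and alveolar genes 6 were higher and 12 lower (66.7%, near the share of all genes), with a median of -0.11. Elf5 and Cldn7 (-0.79, with its other probe at 0.11) were at least 1.5-fold lower. The casein gene Csn3 was at -0.51, and Elf5, the lowest of them by the ratio, was higher by Cy5 alone as described above. Aldh1a3 and Kit, which mark luminal progenitors, differed by -0.26 and -0.03. The part of luminal cells in these values was not tested.

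In the Notch pathway Dll1 was the only gene of 45 measured that was 1.5-fold apart, and it is also the gene by which the cells were sorted. With the scanner software's processed signals Dll1 was at 0.54, short of 1.5-fold. Among 7 ligands, Jag2 and Jag1 read 3.29 and 2.45 in the Dll1-high and 3.08 and 2.34 in the Dll1-low cells, differences of 0.21 and 0.11, while Dll4 differed by -0.42. All 4 receptors were on the lower side, with a median of -0.28 in the ratio and -0.12 in Cy5 alone: Notch1 was at -0.23, Notch2 at -0.07, Notch3 at -0.40 and Notch4 at -0.32. Of 14 target genes 7 were higher and 7 lower, from -0.30 to 0.20 with a median of 0.01, a median whose sign was not kept under all alternatives. Hes1 and Hey1, repressors that Notch switches on, were at 0.06 and -0.22. Of 20 genes that process or modify the pathway's proteins, the glycosyltransferase gene Mfng was lowest at -0.54 and Maml3, a coactivator, highest at 0.31. The other Mfng probe, of similar signal, was at -0.004. Rbpj, the DNA-binding partner, was at -0.18. The RBPJ core TGGGAA was found on either strand within 250 bases before the start of 4 of 8 target genes with a promoter in the table, and of 24.1% of all genes.

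In the Wnt pathway, which sustains basal mammary cells, the secreted inhibitors Sfrp1 and Sfrp2 were lower in Dll1-high cells. Of 10 secreted inhibitors 3 were higher and 7 lower (70%, against 55.9% of all genes), with a median of -0.27. Sfrp1, which binds Wnt proteins outside the cell, had Cy5 signals of 412.5 in the Dll1-high and 1457.5 in the Dll1-low cells, over Cy3 signals of 97 and 116, and was 3.26-fold lower. Sfrp2, of the same family, had Cy5 signals of 724.5 and 1407.5 over Cy3 signals of 552 and 576.5, and was 1.98-fold lower. Both differences lay in the sample channel. Sfrp4 and Wif1 were at -0.49 and -0.36, and Sostdc1 was on the other side at 0.41. Fibroblasts also express Sfrp1, Sfrp2 and Sfrp4, and their markers were lower too, as given below; their part in the result was not tested. Wnt ligands were split, with 8 of 17 higher and 9 lower (median -0.01): Wnt5b (0.58), Wnt6 (0.53) and Wnt10a (0.39) were on the higher side, and Wnt3 (-0.68), Wnt9a (-0.54) and Wnt5a (-0.46) on the lower. Of 22 receptors and amplifiers none was 1.5-fold apart, and Rspo1, a secreted amplifier of Wnt signals, was at 0.58. Of 17 target and feedback genes 1 was 1.5-fold higher, Nkd1, an intracellular inhibitor induced by the pathway. It read 3.92 and 3.19, with its other probe 0.64 higher. In Cy5 alone both probes were 0.48 higher, so no member of the list met the requirement on both dyes. Axin2 and Lef1, widely used readouts, were at 0.09 and 0.16. Their other probes were at 0.34 and -0.20 in the ratio, and at -0.08 and -0.03 in Cy5 alone.

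Among other growth factors, Bmp2, a secreted ligand of the TGF-beta superfamily, was lower. Its Cy5 signals were 201 and 674 over Cy3 signals of 61 and 100, and it was 2.38-fold lower. Id3, an inhibitor of differentiation that BMP signals induce, read 0.48 and 1.09 and was 1.53-fold lower, and Id1 was at -0.40. Id4, which is characteristic of basal mammary cells, was 0.28 higher, however, and of 22 BMP and Id genes 10 were higher and 12 lower. Of 19 TGF-beta and activin genes none was 1.5-fold apart. Of 24 FGF and other growth factor genes only Ntf3 was, with Hgf at 0.55, Bdnf at 0.47 and the receptor gene Fgfr2 at -0.50.

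Interferon-stimulated genes were mostly lower in Dll1-high cells. Of 29 measured, 7 were higher and 22 lower, with a median of -0.23 against -0.03 for all genes, and between -0.27 and -0.14 under the alternatives. At least 1.5-fold lower were 6, or 20.7%, against 1.58% of all genes, and 4 of them by the requirement on both dyes. The chemokine gene Cxcl10, which draws T cells, had Cy5 signals of 1971 and 4771 and was 2.63-fold lower, with its other probe at -0.36. Rsad2, an antiviral enzyme, had Cy5 signals of 373 and 630 and was 1.73-fold lower. Oasl1, Ifit1, Ifit2 and Mx1, also antiviral, were at -0.76, -0.76, -0.76 and -0.65. Apart from Cxcl10 these genes read below the reference on both arrays. Irf7, a transcription factor of the response, was on the higher side at 0.24. Of 22 chemokines 6 were higher and 16 lower (median -0.19), and only Cxcl10 was 1.5-fold apart. Of 15 lymphocyte and 19 macrophage markers 7 and 8 were higher and none was 1.5-fold apart, with medians of -0.01 and -0.03. Of 12 granulocyte and mast cell markers 5 were higher and 7 lower (median -0.06), and Csf3r, the receptor of a granulocyte growth factor, was at -0.61, with -0.60 in Cy5 alone. The part of leukocytes in these values was not tested.

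The interferon-stimulated response element (GAAA, then NN for any bases, then GAAA) was searched on both strands (matches can overlap) in the same 250-base windows. It was found for 13 of 23 interferon-stimulated genes with a promoter in the table (56.5%) and for 3.46% of all genes. The median difference was -0.21 for the members with the element and -0.22 for those without. The promoters of 3 members at least 1.5-fold lower are shown, with matches in capitals: Cxcl10 at chr5:92348890-92349139, minus strand, Rsad2 at chr12:26456453-26456702, minus strand, and Ifit1 at chr19:34640639-34640888, plus strand. Each reads 5′ to 3′ towards its gene, and Ifit1 holds 2 matches.

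Cxcl10: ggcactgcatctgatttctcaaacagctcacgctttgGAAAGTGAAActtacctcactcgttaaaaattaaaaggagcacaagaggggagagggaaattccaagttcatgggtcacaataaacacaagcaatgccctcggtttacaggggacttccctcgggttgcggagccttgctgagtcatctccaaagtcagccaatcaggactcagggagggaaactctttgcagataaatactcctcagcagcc
Rsad2: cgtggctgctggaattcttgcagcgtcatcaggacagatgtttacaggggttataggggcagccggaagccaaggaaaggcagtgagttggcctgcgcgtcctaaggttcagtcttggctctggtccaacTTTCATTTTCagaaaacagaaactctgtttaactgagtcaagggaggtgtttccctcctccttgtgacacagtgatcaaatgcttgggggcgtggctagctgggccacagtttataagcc
Ifit1: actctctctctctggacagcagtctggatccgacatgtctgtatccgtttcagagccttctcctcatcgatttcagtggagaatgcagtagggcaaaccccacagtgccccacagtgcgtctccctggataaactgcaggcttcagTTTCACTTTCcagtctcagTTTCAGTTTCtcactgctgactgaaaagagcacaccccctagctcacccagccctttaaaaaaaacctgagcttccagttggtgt

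Among 17 growth factors and cytokines that act on macrophages, 9 were higher and 8 lower, with a median of 0.00. Il34 and Csf1 both encode ligands of the macrophage growth factor receptor. Il34 had Cy5 signals of 2407 and 1490.5 and was 1.62-fold higher. Csf1 was 0.33 higher with a spot SD of 0.058. Csf3 was 0.71 higher in the ratio but 0.37 in Cy5 alone, and the alarmin gene Il33 was at -0.61.

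Markers of stromal cells were mostly lower in Dll1-high cells. Of 16 fibroblast markers 2 were higher and 14 lower, with a median of -0.49 (-0.52 to -0.40 under the alternatives) and 5 at least 1.5-fold lower, of which the requirement on both dyes left 2, Pi16 and Col1a1. Pi16 had Cy5 signals of 1219.5 and 2189.5 and was 1.95-fold lower. The collagen genes Col1a1, Col1a2 and Col3a1 were at -0.72, -0.69 and -0.66 in the ratio and at -0.72, -0.42 and -0.40 in Cy5 alone. All 3 collagens read below the reference on both arrays, Col1a1 at -3.07 and -2.35. Fn1, fibronectin, was 2.05-fold lower and read -4.64 and -3.60, and Vim, vimentin, was at -0.54. Of 15 endothelial markers 2 were higher and 13 lower, with a median of -0.26 and 2 at least 1.5-fold lower by the ratio (0 by the requirement on both dyes), and Pecam1 and Cdh5, which define those cells, were at -0.30 and -0.14. The part of stromal cells in the other results was not tested. Matrix genes as a whole were split: of 27 collagens and matrix proteins 14 were higher and 13 lower. Postn, Thbs1 and Col5a2, matrix proteins, were 0.35, 0.53 and 0.59 higher. Of 26 proteases and inhibitors, Cst6 and Adamts17, given with the 2-fold genes, were at least 1.5-fold higher, and the protease genes Plat (-0.78), Mmp3 (-0.77) and Adamts1 (-0.75) were at least 1.5-fold lower. Of 22 immediate early genes 15 were lower, and Nr4a1 alone was 1.5-fold apart, at -0.83. Cell cycle (28), heat shock (17), hypoxia (20), ribosomal (23) and oxidative phosphorylation genes (30) held no gene 1.5-fold apart, though 25 of the last were higher, with a median of 0.08.

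**Figure D4:**
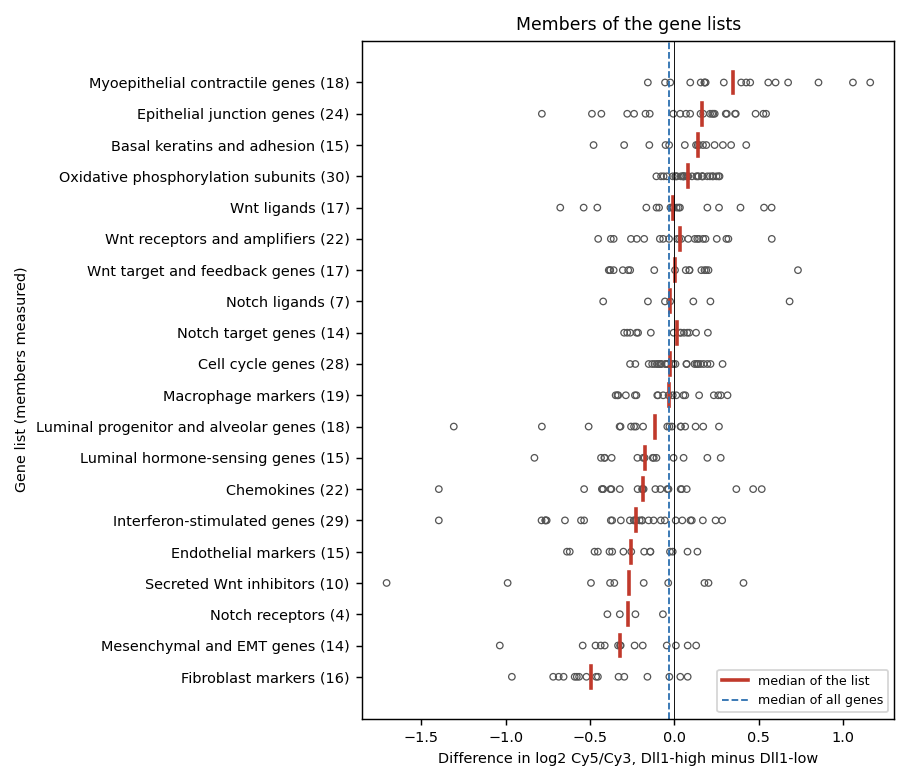
Each row is a gene list, with a point for each measured gene at its difference in log2 ratio between the Dll1-high and Dll1-low arrays and a bar at the list's median. The contractile genes lie to the right with a median of 0.34, and the fibroblast markers to the left with a median of -0.49, while the median over all genes is -0.03.

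Genes read by several probes gave a further check. Among 10039 genes and transcripts with at least 2 measured probes, 6 (0.0598%) had every probe at least 1.5-fold higher and 6 (0.0598%) every probe at least 1.5-fold lower. Of the 66 genes past 2-fold, 19 had at least 2 probes and 0 of them had every probe 1.5-fold apart the same way. The 6 higher were Sh3bgr (0.77 and 0.83), Ston2, Elovl4, Ctnnd2, Nkd1 and Arl4d. Elovl4, which was not in the lipid list, elongates very long fatty acids, and Ctnnd2 encodes a catenin of cell junctions. The lower with a symbol were Thbs3 (-0.82 and -0.78), Dct (-0.76 and -0.67), Tsc22d1 (-0.63 and -0.64) and Serpinf1 (-0.74 and -0.60). The probes of Sh3bgr, Ctnnd2, Arl4d, Thbs3 and Dct overlap in position, so for these genes they are not independent checks. Thbs3 encodes a thrombospondin of the matrix and Serpinf1 a secreted inhibitor of vessel growth. In Cy5 alone Elovl4, Ctnnd2, Arl4d and Thbs3 were 1.5-fold apart on both probes. The others with a symbol fell short on at least 1 probe, such as Ston2 (0.52 and 0.35) and Nkd1 (0.48 on both). Among the genes past 2-fold, Calml3 (1.27), Adamts17 (1.26), Zfhx4 (1.17) and Uggt1 (-1.35) had another probe at -0.07, 0.20, 0.17 and -0.13 respectively. Mest, an imprinted gene, was 3.07-fold lower on its ten-spot probe with a spot SD of 0.107, while its other probes were at -0.67 and -0.16. Of transcripts without a symbol, the highest pair, known by probe or array name only, were at 1.04 and 1.00 on a single probe each, and the lowest 3 at -1.27, -1.22 and -1.17, with another probe at 0.09, -0.08 and 0.30 respectively.

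Probes printed 10 times allow a difference to be set beside the spread of spots within an array. Fbxo32, a ubiquitin ligase subunit of muscle wasting, read 1.67 and 0.88, a difference of 0.79 with a spot SD of 0.137. Slc2a4, the insulin-responsive glucose transporter, was 0.45 higher (spot SD 0.162) and Gja1, a gap junction protein of myoepithelium, 0.31 higher (spot SD 0.057). On the lower side were Akr1b8 (-0.55, spot SD 0.045), Batf (-0.53, spot SD 0.103, with 7 spots kept on the Dll1-low array) and Pdgfra, a fibroblast receptor (-0.46, spot SD 0.108). Spots on 1 array share 1 labelled RNA sample, so these SDs hold no spread between mice or between arrays. Cy3 alone, with the same RNA on both arrays, had an SD over all genes of 0.191. Kdr, the VEGF receptor of endothelium, was at -0.51 on this probe and 0.08 on its other probe.

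**Figure D5:**
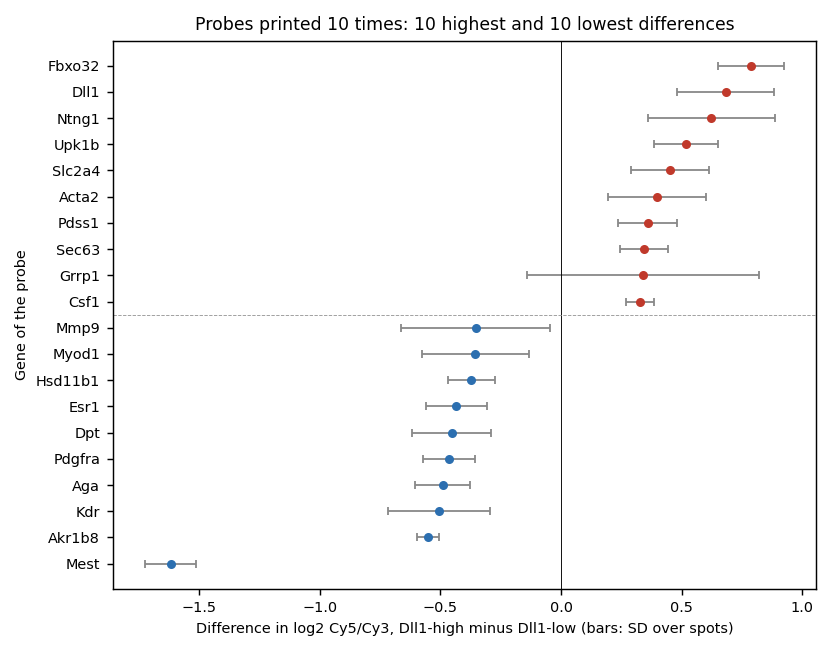
Difference in log2 ratio between the Dll1-high and Dll1-low arrays for the 10 highest and 10 lowest probes that were printed 10 times and kept at least 8 spots on each array, with bars of 1 SD over spots. Fbxo32 (0.79) and Dll1 (0.68) are among the highest and Mest (-1.62) is the lowest.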

How the data were processed

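Per the file headers, the authors scanned 2-colour Agilent arrays and extracted spot intensity with Feature Extraction 11.0.1.1 (11.0 per the submitters' processing notes), with probes placed on mm9. The deposited files give the intensity of each spot and background in both dyes and a log10 ratio made by the authors' software. A further table deposited by the authors gives log2 ratios, with unstated centring, that matched the scanner ratios with slopes of 1.00 and medians of 0.05 and 0.001.

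From the median intensities, background was corrected with normexp (offset 50) and dyes by loess within each array (limma 3.58.1, R 4.3.3). Control and outlier spots were left out and spots of a probe averaged. A gene takes its brightest probe. Probe names came from RefSeq accessions (27509 probes) or the array's own names (28172). No fold is given where a gene was not well above background in 1 of the fractions. The computation was tested on simulated data. No test was possible, since each state has 1 array. Named by rule were Dll1, Cd24a and Itgb1, the 12 largest differences each way, genes whose probes all differed 1.5-fold the same way (up to 10 each way), the 6 largest ten-spot differences each way, list members past 1.5-fold (otherwise the 3 largest), Notch and Wnt members, and the 3 largest each way without a symbol. Other genes named were chosen after their values were seen. Members and lists were chosen with earlier results of these data known. Alternatives are given in the closing section. Some named items are not reported here.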

Additional observations from a re-analysis of the deposited data

How the results depend on the processing

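No paired analysis was possible because each state has 1 array, and no array could be left out. The numbers of genes at least 2-fold higher and lower, 33 and 33, became 329 and 666 with the scanner's own processed signals, 330 and 666 in the table deposited by the authors, 117 and 211 with an offset of 0, and 63 and 81 with the Cy5 channel alone. The other settings gave 23 to 39 higher and 22 to 37 lower. The difference of Dll1 was 0.41 as the mean over all its probes. It was 0.54 with the scanner's processed signals, in the authors' table and with median centring, each short of 1.5-fold. With Cy5 alone Elf5 reversed to 0.59 and 4833419E13Rik to -0.68. The cause was not tested. Of the 66 genes, 64 kept their sign under each alternative that gave a value, and 24 stayed past 2-fold. Of 44 list medians 22 kept their sign throughout. The requirement on both dyes, which left 30 and 29 genes, was added after seeing the data. Low signal over background limits the dim genes, where the reference channel also differed, and no spread between mice can be given.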
